A study of Arabidopsis thaliana with 12 samples.

Results

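Transcript levels in Arabidopsis thaliana seedlings of the mutant aba2 were set directly against those of the mutant etr1, both harvested at 12 days, with no wild type in the contrast. These 2 genotypes make up 4 of the 12 arrays in the series, 2 for aba2 and 2 for etr1, and were taken by their labels. All plants came from cold-treated seed and grew on agar with 1% sucrose, and total RNA was hybridised to ATH1 arrays, 1 per sample. The aba2 line is the gin1-3 allele and the etr1 line the etr1-1 allele, per the design text. Also used were 2 arrays each of the wild types Col-7 and Col-0 at 12 days, to show which mutant departs. A further 2 arrays each of ein2 (allele ein2-1) and Col-0 at 14 days share no array with aba2 or etr1. The labels name no organ, and they do not say whether replicate arrays came from separate cultures, so p-values measure the spread between these samples only, which may be technical.

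The ABA2 enzyme works in the pathway that makes abscisic acid (ABA). Plants that lack it have little of this hormone, which acts in stress responses, seed dormancy and stomatal closure. ETR1 is an ethylene receptor in the endoplasmic reticulum, and the etr1-1 allele leaves plants insensitive to ethylene. EIN2 lies downstream of the receptors and carries the signal to the nucleus, so its loss also gives insensitivity. The series concerns how the ABA and ethylene pathways act together, and this contrast sets an ABA-deficient seedling against an ethylene-insensitive one. The probe sets of ABA2, ETR1 and EIN2 were not among those paired with a gene here, so the levels of the mutated genes are not given.

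Replicate arrays correlated at 0.9856 in aba2 and 0.9884 in etr1, and an aba2 array correlated with an etr1 array at 0.966 to 0.968 (Pearson's r across probe sets on log2(signal + 50)). The Col-0 arrays at 12 days stood apart: their log2 difference had an SD of 0.528, against 0.249 to 0.436 in the other 5 groups. They are not in the contrast, but they enter the pooled spread by which it is tested. The ratio of the 3' to the 5' GAPDH control probe sets, a measure of RNA and labelling quality, was 1.68 and 1.13 in aba2, against 1.70 and 1.41 in etr1. Markers of leaf and root were present in both mutants. The summed signal of 3 nuclear photosynthesis genes was 69803 and 67061 in aba2, against 58370 and 63806 in etr1. For 3 root markers it was 15166 and 15984 in aba2, against 13577 and 11855 in etr1. Both sums were higher in the aba2 arrays without overlap, none of the 6 genes passed the test, and the part of organ proportions in the results below was not tested. In bulk samples, fewer cells of a type and less RNA per cell cannot be told apart.

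Of 22746 probe sets, 590 differed between aba2 and etr1 at an adjusted p under 0.05 (2.59%). A total of 361 were higher in aba2 (1.59%) and 229 were lower (1.01%). The median difference of the higher ones was 1.31 on the log2 scale and that of the lower ones -1.12, while the median over all probe sets was -0.0284. At least 4-fold differences were found for 49 higher and 27 lower probe sets. The aba2 arrays lay wholly above or wholly below the etr1 arrays for all 590, which also held for 50% of all probe sets. Without the Col-0 arrays at 12 days the count was 1195, and with 1 aba2 or etr1 array left out it was 88 to 122: 116 and 89 without aba2 replicate 1 and 2, 88 and 122 without etr1 replicate 1 and 2. No called difference changed sign in any of these fits, but none could. The aba2 and etr1 arrays did not overlap for any call, and the Col-0 arrays are not in the contrast. Of 40 genes named by rule, 15 passed without each of the 4 mutant arrays in turn: SIS, WRKY53, PDF2.1, JAL22, JAL23, ARL, AT5G50335, AT2G22880, AT1G52100, AT3G16670, AT2G39980, AT1G43590, AT1G55450, AT1G65500 and AT2G43530. The other 25 lost their call in at least 1 of the 4 fits. Of all 55 called genes with a symbol, 7 passed in each of the 4 fits: SIS, WRKY53, PDF2.1, JAL22, JAL23, ARL and IAGLU. A further 32 lost their call in all 4 and 16 in 1 to 3 of them. An exact permutation test of a single gene cannot go below 0.333 with 2 arrays against 2, so the calls rest on the spread that limma shares over probe sets. Differences are on the log2(signal + 50) scale, which makes those of dim probe sets smaller than their signal ratios.

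**Figure D1:**
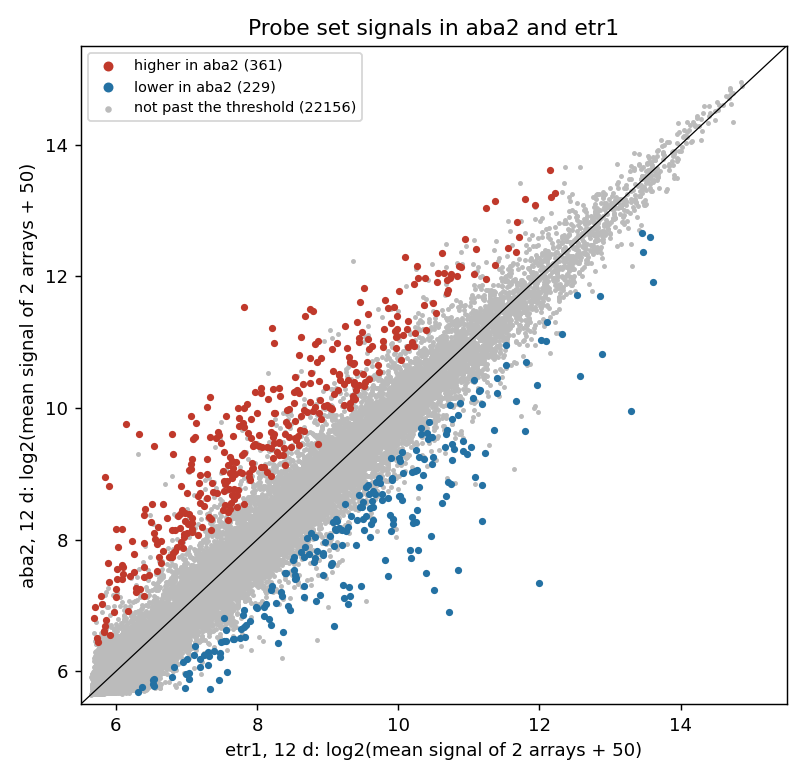
Mean signal of the 2 aba2 arrays (vertical axis) against that of the 2 etr1 arrays (horizontal axis), each as log2(signal + 50), for 22746 probe sets. Red points mark the 361 probe sets higher in aba2, blue points the 229 that were lower, and the line marks equal signal.

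The largest difference of a gene with a name was that of SIS (AT5G02020), Salt Induced Serine rich. SIS had 3218 and 2639 signal units in aba2, against 226 and 123 in etr1. In the wild types it had 807 and 1217 in Col-7 and 277 and 320 in Col-0. Both aba2 arrays thus lay above, and both etr1 arrays below, all 4 wild-type arrays. The difference between the mutants was 3.76 ± 0.26 (SE) on the log2 scale, or 13.6-fold (adjusted p = 0.000249). SIS passed both as higher in aba2 than in the wild types, by 2.3, and as lower in etr1, at -1.46. Those 2 contrasts share the wild-type arrays, and each depended on the wild type. Against Col-0 alone aba2 was higher by 3.09 (adjusted p = 0.00185), while etr1 did not pass, at -0.67 (adjusted p = 0.484). Against Col-7 alone etr1 was lower at -2.25 (adjusted p = 0.00782), while aba2 did not pass, at 1.51 (adjusted p = 0.0542).

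A group of genes lay well below the wild types in etr1, and did not pass in aba2 against the wild types. AT5G50335 had 836 and 794 in aba2, against 10.4 and 31.0 in etr1, a difference of 3.63 ± 0.23 (adjusted p = 0.000249). The wild types had 335 and 534 (Col-7) and 385 and 396 (Col-0). Both etr1 arrays lay below, and both aba2 arrays above, all 4 wild-type arrays. The etr1 effect of -2.71 passed (adjusted p = 0.000396), while the aba2 effect of 0.92 did not (adjusted p = 0.0711).

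AT3G16670 had 2426 and 2206 in aba2, against 194 and 301 in etr1 (3.01 ± 0.23). AT2G39980 had 762 and 515 in aba2, against 46.7 and 39.3 in etr1 (2.87 ± 0.20). AT1G52100 had 478 and 409 in aba2, against 6.75 and 8.44 in etr1 (3.10 ± 0.31). In each of the 3 the etr1 arrays were the lowest of the 8 arrays at 12 days, and aba2 did not pass against the wild types. The etr1 effects were -2.53, -2.70 and -3.03 in that order, and all 3 passed. Signals under the offset of 50 make the size of such a difference depend on it: with offsets of 150 and 10 it was 1.91 and 4.68 for AT1G52100, 2.01 and 3.59 for AT2G39980, and 2.5 and 4.83 for AT5G50335.

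ARL (ARGOS-LIKE), which promotes cell expansion in growing organs, behaved in the same way. ARL had 1426 and 1137 in aba2, against 406 and 354 in etr1 (1.62 ± 0.19, adjusted p = 0.00291), with 913 to 1405 in the 4 wild-type arrays. IAGLU, an enzyme that joins the auxin indole-3-acetic acid to glucose, had 546 and 509 in aba2, against 169 and 148 in etr1, a difference of 1.47 (adjusted p = 0.00303). The wild types had 526 to 746, so the etr1 arrays again lay below every other 12-day array. STOMAGEN, a peptide that raises stomatal density, had 1647 and 1488 in aba2, against 743 and 829 in etr1 (0.95, adjusted p = 0.00796), and passed as lower in etr1 than in the wild types. Its call between the mutants was lost in all 4 fits without 1 mutant array.

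A second group was raised in aba2, with etr1 near the wild types. AT5G28630 had 1060 and 1268 in aba2, against 149 and 254 in etr1 (2.3 ± 0.30, adjusted p = 0.00528). The wild-type arrays reached 335 at most. CML42, a calmodulin-like calcium sensor, had 785 and 605 in aba2, against 145 and 239 in etr1 (1.64 ± 0.23, adjusted p = 0.00677), and 161 to 249 in the wild types. Each of the 2 genes lost its call in 2 of the 4 fits without 1 mutant array. The aba2 arrays were the highest of the 8 for both genes, and the etr1 effects of 0.21 and -0.06 did not pass.

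AT1G55450 followed, with 5628 and 4355 in aba2, against 840 and 1239 in etr1 (2.22 ± 0.26). AR781 had 2249 and 1810 in aba2, against 323 and 510 in etr1 (2.18 ± 0.31). PUB24, an E3 ubiquitin ligase of the U-box type, had 561 and 423 in aba2, against 132 and 172 in etr1 (1.42, adjusted p = 0.0247). All 3 passed as higher in aba2 than in the mean of the wild types and did not pass in etr1. Set against Col-0 alone, aba2 passed for all 3. Set against Col-7 alone, aba2 passed for none of them (adjusted p = 0.0705, 0.117 and 0.139, in that order). AR781 lost its call without aba2 replicate 1, aba2 replicate 2 or etr1 replicate 1. PUB24 lost its call in all 4 fits without 1 mutant array.

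For some genes of this kind the answer depended on the wild type. WRKY53, a transcription factor that acts in leaf senescence, had 849 and 522 in aba2, against 79.3 and 92.4 in etr1 (2.40 ± 0.22, adjusted p = 0.000884). Col-7 had 328 and 417, and Col-0 had 91.8 and 87.9. Thus Col-0 was at the level of etr1, while Col-7 lay between the mutants. Set against Col-0 alone, aba2 was higher by 2.36 (adjusted p = 0.00222) and etr1 was at -0.04. Set against Col-7 alone, etr1 was lower at -1.63 (adjusted p = 0.0194) and aba2 did not pass, at 0.77 (adjusted p = 0.23). AT1G43590 gave the same split, with aba2 above Col-0 by 2.53 and etr1 below Col-7 at -2.21. No probe set passed between Col-7 and Col-0 at 12 days in limma (0 of 22746, with 1241 at an unadjusted p under 0.05).

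**Figure D2:**
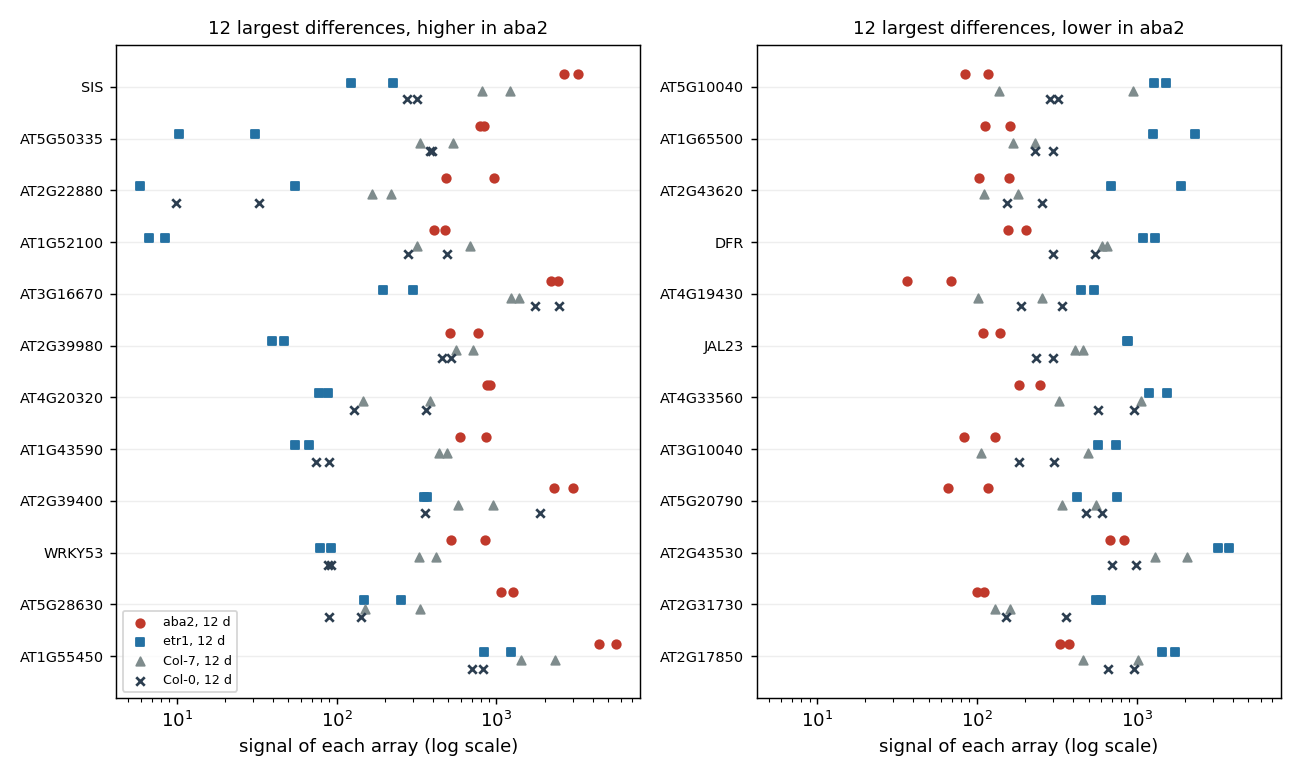
Signal of each array (log scale) for the 12 genes with the largest differences in each direction, with aba2 arrays as red circles, etr1 arrays as blue squares, and the 12-day wild types Col-7 (grey triangles) and Col-0 (dark crosses) below them. The wild types lie beside aba2 for AT1G52100 and AT2G39980, beside etr1 for AT5G28630, and between the mutants for DFR and JAL23.

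Among the genes lower in aba2, some stood out by a high level in etr1. AT1G65500 had 112 and 161 in aba2, against 1272 and 2327 in etr1 (-3.26 ± 0.31, adjusted p = 0.000947). The 4 wild-type arrays had 169 to 298, close to aba2. The etr1 effect of 2.67 passed, and the aba2 effect of -0.59 did not. M17, a late embryogenesis abundant gene, had 1.01 and 5.79 in aba2, against 155 and 67.8 in etr1 (-1.54 ± 0.23, adjusted p = 0.00803). Signals this low in aba2 and in the wild types (0.36 to 14.2) lie under the offset of 50, and the difference ran from -3.10 to -0.75 over the alternative settings. AT2G43620 had 103 and 158 in aba2, against 695 and 1886 in etr1 (-2.75 ± 0.41). With 1 mutant array left out, its difference ran from -3.44 to -2.06. Here etr1 also passed as higher than the mean of the wild types, but not against Col-0 alone (limma, adjusted p = 0.0778).

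Loss of level in aba2 was seen for AT5G20790. It had 117 and 66.4 in aba2, against 424 and 748 in etr1 (-2.14 ± 0.35, adjusted p = 0.0112), and 344 to 604 in the wild types. The aba2 arrays were the lowest of the 8, and the aba2 effect of -1.94 passed (adjusted p = 0.0164). Its call was lost without aba2 replicate 1, aba2 replicate 2 or etr1 replicate 2, with an adjusted p of up to 0.111.

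In other genes the wild types lay in the middle. DFR, dihydroflavonol 4-reductase of anthocyanin synthesis, had 203 and 157 in aba2, against 1306 and 1089 in etr1 (-2.44 ± 0.32, adjusted p = 0.00528), and 298 to 656 in the wild types. Neither mutant passed against the wild types, at -1.28 for aba2 and 1.16 for etr1. AT3G10040 (HRA1), an attenuator of the hypoxia response, had 83.7 and 129 in aba2, against 742 and 572 in etr1 (-2.18 ± 0.46, adjusted p = 0.0369). Its wild-type arrays spread over 107 to 493, and the call was lost without any 1 of the 4 mutant arrays (adjusted p up to 0.224). AT5G10040 had 117 and 85.0 in aba2, against 1515 and 1287 in etr1 (-3.27 ± 0.57, adjusted p = 0.0153), and its call was likewise lost without any 1 of them (up to 0.134).

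Over all 590 probe sets, the mean of the 12-day wild types lay between the mutants for 308 of the 361 higher ones (85.3%) and for 213 of the 229 lower ones (93.0%). It was nearer to etr1 in 218 of the 361 (60.4%) and in 104 of the 229 (45.4%), and nearer to aba2 in the rest. Across all probe sets 0.967% differed between aba2 and the wild types and 0.431% between etr1 and the wild types. In aba2 0.743% passed as higher and 0.224% as lower, and in etr1 0.167% as higher and 0.264% as lower. Of the 361, 122 passed as higher in aba2 (33.8%) and 52 as lower in etr1 (14.4%), and 189 passed in neither. Of the 229, 36 passed as lower in aba2 (15.7%) and 30 as higher in etr1 (13.1%), and 166 passed in neither. These contrasts use the same aba2 and etr1 arrays as the choice of the 590, so the shares describe them and are no separate evidence. Col-7 was above Col-0 in 239 of the 361, with a median difference of 0.185, and in 105 of the 229, with a median of -0.0358, against 50.4% and 0.00224 over all probe sets.

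**Figure D3:**
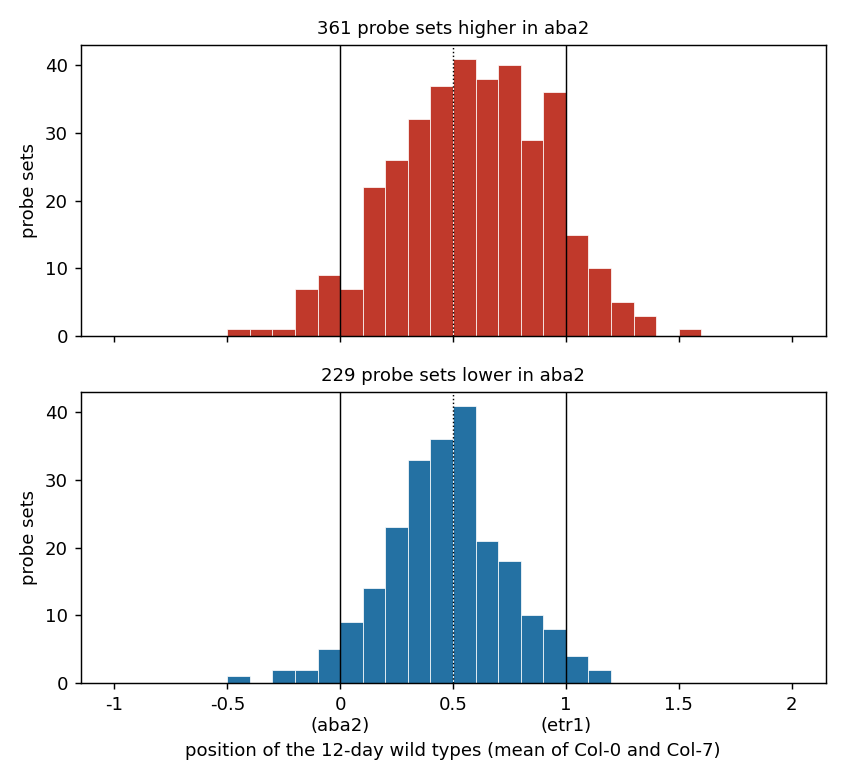
Position of the 12-day wild types on the way between aba2 (0) and etr1 (1) for the 361 probe sets higher in aba2 (top) and the 229 lower in aba2 (bottom), as a count of probe sets per step of position on the log2(signal + 50) scale. Most lie between the mutants, 308 in the upper panel and 213 in the lower, which the choice of probe sets by a large gap favours.

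The arrays of ein2 and its wild type at 14 days gave a separate measurement of these probe sets in another ethylene-insensitive mutant. Of the 361 probe sets higher in aba2 than in etr1, 288 were lower in ein2 than in Col-0 by value (79.8%, against 49.7% of all probe sets), with a median of -0.273. Of the 229 lower in aba2 than in etr1, 198 were higher in ein2 by value (86.5%, against 50.3%), with a median of 0.305. Across all probe sets 51 passed in ein2 (0.224%), 34 as lower (0.149%) and 17 as higher (0.0747%). Of the 361, 26 passed as lower in ein2 (7.2%), and of the 229, 11 passed as higher (4.8%). None of the 590 passed in the other direction. These 37 are 72.5% of the ein2 calls and 6.27% of the 590. Both contrasts were tested with the same spread per probe set, pooled over all 12 arrays. The values are thus separate, but the calls are not independent. Among the 26, 25 had wild types nearer to aba2 than to etr1, and among the 11, 5 did. By value, the ein2 effect ran opposite to the difference aba2 minus etr1 also where the wild types were nearer to etr1. This held in 167 of 218 of the higher probe sets (76.6%) and in 88 of 104 of the lower ones (84.6%). Where the wild types were nearer to aba2, it held in 121 of 143 (84.6%) and in 110 of 125 (88.0%).

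AT5G50335 had 0.93 and 11.7 in ein2, against 621 and 761 in Col-0 at 14 days (-3.72, adjusted p = 0.00024). AT3G16670 had 411 and 271 in ein2, against 3087 and 3004 in Col-0 (-3.01, adjusted p = 0.000504). ARL had 443 and 481 in ein2, against 1749 and 2230 in Col-0 (-1.99, adjusted p = 0.00239). The ein2 and Col-0 arrays did not overlap for any of these 3, which were also the genes that were low in etr1. AT2G39980 and IAGLU passed as lower in ein2 too, at -1.88 and -1.26. SIS passed at -1.60 (adjusted p = 0.0465). JAL23 was higher in ein2 by 2.31 (adjusted p = 0.000908).

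Not every gene that was low in etr1 was low in ein2. JAL22, a jacalin-related lectin, had 2262 and 2514 in aba2, against 623 and 493 in etr1 (2.01 ± 0.18, adjusted p = 0.000842), and 2140 to 3208 in the 12-day wild types. It had 6512 and 5930 in ein2, against 4150 and 3788 in Col-0 at 14 days. The etr1 effect was thus -2.11 and the ein2 effect 0.64, and the difference of the effects was -2.76 ± 0.24 (adjusted p = 0.00714). AT1G52100 had an ein2 effect of 0.16 beside its etr1 effect of -3.03, but the difference of the effects did not pass (adjusted p = 0.0919). The age of the plants also differs between the 2 effects.

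**Figure D4:**
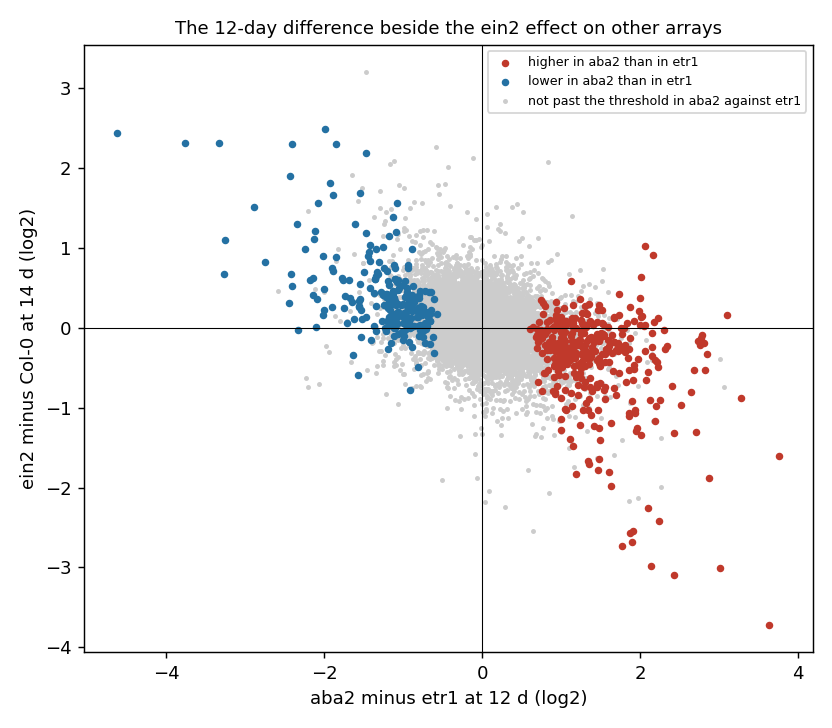
Difference between ein2 and Col-0 at 14 days (vertical axis) against the difference between aba2 and etr1 at 12 days (horizontal axis), both on log2(signal + 50), for all probe sets. The red points (higher in aba2) lie mostly below 0 on the vertical axis, 288 of 361, and the blue points (lower in aba2) mostly above it, 198 of 229.

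The platform annotation paired 35 of the 300 genes on the lists given by locus (hormone pathways, stress, metabolism, and leaf and root markers) with a probe set, so the lists below hold few of their genes. Counts of members that passed, here and for the families below, stand beside 2.59% of all probe sets (1.59% higher and 1.01% lower in aba2). Of 5 genes that respond to ABA, cold or dehydration, 1 was higher in aba2 and none was lower, with a median of 0.749 (0.491 with an offset of 150). Against the 12-day wild types the median of the list was -0.169 in aba2 and -0.784 in etr1, so it was not raised in aba2. LTI30, a dehydrin, had 1766 and 1653 in aba2, against 633 and 534 in etr1 (1.48, adjusted p = 0.0265), and neither mutant passed against the wild types. The dehydrin COR47 was at 1.11 and COR15B at 0.75 without passing. COR15A, a chloroplast protein of cold acclimation, had 165 and 99.4 in aba2, against 454 and 514 in etr1 (-1.57, adjusted p = 0.118), and LEA4-5 was at 0.03. XERICO, a RING-type protein that raises ABA levels, had 1453 and 1232 in aba2, against 744 and 696 in etr1 (0.85, adjusted p = 0.0219). LTI30 and XERICO lost their calls in all 4 fits without 1 mutant array.

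None of 4 measured genes of ethylene perception and signalling passed. The transcription factor EIN3 had 1905 and 2326 in aba2, against 2155 and 1913 in etr1. RTE1, a positive regulator of ETR1, had 438 and 412 in aba2, against 255 and 268 in etr1 (0.61, adjusted p = 0.11). RTH, its homologue, and ETP2, an F-box protein that acts on EIN2, were at 0.25 and 0.12. Among 3 ethylene-responsive genes ARL passed, and the defensins PDF1.2 and PDF1.2b did not (-0.09 and -1.12). PDF1.2 had 150 and 780 in aba2, against 231 and 621 in etr1, so the arrays of each mutant spread more than the mutants differed.

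Of 4 auxin genes IAGLU was the only 1 that passed. The conjugating enzymes WES1 and GH3.3 were at 0.53 and -1.18 and the repressor IAA29 at -0.45. The 4 gibberellin genes, the receptors GID1A, GID1B and GID1C and the F-box protein SLY1, ranged over -0.11 to 0.62, with a median of 0.211, and none passed.

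All 4 measured jacalin-related lectins with a JAL symbol passed, 3 as higher in aba2 and 1 as lower, with a median of 1.05. Lectins given by locus code were not on this list. JAL33 had 3882 and 5119 in aba2, against 2140 and 1470 in etr1 (1.31, adjusted p = 0.0104). JAL34 had 3978 and 5115 in aba2, against 2828 and 2361 in etr1 (0.79, adjusted p = 0.0462). The calls of JAL33 and JAL34 were lost in 2 and in 4 of the 4 fits without 1 mutant array. JAL23 went the other way, with 109 and 140 in aba2, against 874 and 877 in etr1 (-2.41 ± 0.20, adjusted p = 0.000457). Of these 4, only JAL23 passed in both mutants against the wild types, at -1.17 for aba2 and 1.24 for etr1. JAL33 and JAL34 are neighbouring genes. They are 1 of 10 pairs of neighbours, among 5849 measured pairs, in which both genes passed, and 9 of the 10 pairs moved in the same direction. The second gene passed in 6.58% of pairs whose first gene passed, against 2.82% of all pairs.

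Trichome birefringence-like proteins, which add acetyl groups to cell wall polysaccharides, held 3 of 22 measured members that were lower in aba2 and none that was higher. The median was -0.194 (-0.576 among those above the 60th percentile of signal), and 4 of the 22 had a positive difference, against 45.4% of all probe sets. TBL37 had 240 and 324 in aba2, against 943 and 850 in etr1 (-1.52 ± 0.25, adjusted p = 0.0112). TBL38 had 335 and 346 in aba2, against 1013 and 1018 in etr1 (-1.45 ± 0.32, adjusted p = 0.0423). TBL25 was at -0.80 (adjusted p = 0.0221). The aba2 arrays lay below the etr1 arrays in 13 of the 22, against 28.2% of all probe sets. All 3 lost their calls without any 1 of the 4 mutant arrays.

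The 2 called genes named as pectin methylesterases went opposite ways. PMEPCRF had 599 and 662 in aba2, against 1336 and 1810 in etr1 (-1.24 ± 0.17, adjusted p = 0.00669). ATPMEPCRD had 154 and 175 in aba2, against 65.8 and 49.2 in etr1 (1.0, adjusted p = 0.0241). The glycosyl hydrolase GH9B13 was at -1.65. PMEPCRF and GH9B13 lost their calls in 3 of the 4 fits without 1 mutant array, and ATPMEPCRD in all 4. Of 11 RALF-like peptides, which signal in cell growth, RALFL24 (-1.25) and RALFL31 (-0.71) were lower in aba2 and none was higher, with calls lost in 3 and in 4 of the 4 fits. Of 47 UDP-glycosyltransferases with a UGT symbol 2 were lower, UGT74D1 (-1.06) and UGT85A3 (-0.83), and none was higher. IAGLU, an enzyme of the same kind without a UGT symbol, was higher in aba2, as given above. The sugar transporter SWEET4 was the only 1 of 14 SWEET genes that passed (-1.10), and bZIP42 the only 1 of 14 bZIP factors (-1.01). Both were dim in aba2, at 33.3 and 42.6 for SWEET4 and 34.7 and 11.5 for bZIP42. With offsets of 150 and 10 the difference was -0.62 and -1.64 for SWEET4, -0.51 and -1.76 for bZIP42, and -0.41 and -1.45 for UGT85A3. SWEET4, bZIP42, UGT74D1 and UGT85A3 lost their calls in all 4 fits without 1 mutant array.

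Of 18 expansins, which loosen cell walls, none passed. EXPA8 had 2460 and 1607 in aba2, against 305 and 586 in etr1 (2.1, adjusted p = 0.0775). EXLA1 had 316 and 510 in aba2, against 1611 and 1855 in etr1 (-1.97, adjusted p = 0.268). The groups did not overlap for either gene, but the wild-type arrays spread over 792 to 2863 for EXPA8 and over 127 to 1650 for EXLA1. Of 9 xyloglucan endotransglucosylases none passed, with a median of 0.136.

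Of 7 calmodulin-like proteins, CML42 and CML37 were higher in aba2 and none was lower (median 0.272). CML37 had 61.0 and 63.4 in aba2, against 1.70 and 2.01 in etr1 (1.11, adjusted p = 0.0476). With offsets of 150 and 10 its difference was 0.48 and 2.61, and its call was lost in all 4 fits without 1 mutant array. WRKY53 was the only 1 of 6 WRKY factors that passed. Of 7 plant defensins with a PDF symbol PDF2.1 passed, with 281 and 282 in aba2, against 48.6 and 19.8 in etr1 (2.0 ± 0.24, and 1.23 and 2.8 with offsets of 150 and 10). LCR69, also called PDF2.2 in the RefSeq table, passed too, with 6580 and 7804 in aba2, against 3834 and 2651 in etr1 (1.16, adjusted p = 0.018). Of 26 cytochromes P450 only CYP71B5 passed (1.18), against 2.59% of all probe sets. CYP71B22 was at 2.26 with an adjusted p of 0.0516. PORB, which makes chlorophyllide in the light, had 8292 and 10094 in aba2, against 3254 and 3750 in etr1 (1.38, adjusted p = 0.00796). Without 1 mutant array CYP71B5 lost its call in all 4 fits, and LCR69 and PORB in 3 of them.

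Genes encoded in the organelles did not pass. The 69 plastid genes had a median of -0.123. The 16 mitochondrial genes had a median of -0.414 (-0.237 with an offset of 150). Of the 16, 3 were positive, against 45.4% of all probe sets, and the aba2 arrays lay below the etr1 arrays in 11, against 28.2%. Their summed signal was 2044 and 1717 in aba2, against 2918 and 3345 in etr1. The 12-day wild types spread widely, with 2293 and 4178 in Col-7 and 2617 and 3365 in Col-0. None of 20 beta-glucosidases, 13 glutathione S-transferases or 10 autophagy proteins passed either, against 2.59% of all probe sets.

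**Figure D5:**
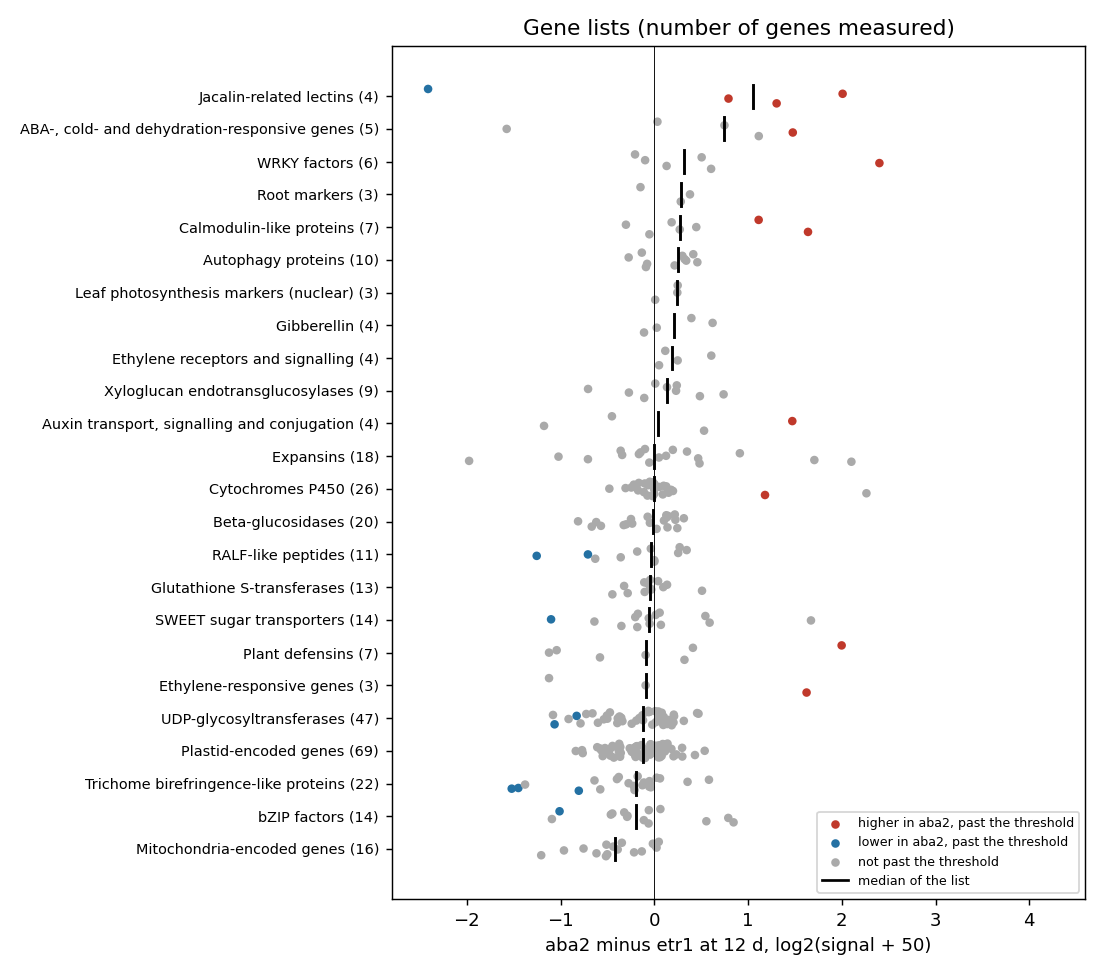
Difference between aba2 and etr1 on log2(signal + 50) for each gene of the lists with at least 3 measured genes, with the number measured in brackets and a black line at the median. Red points passed as higher in aba2 and blue points as lower. All 4 jacalin-related lectins with a JAL symbol passed, and none of 16 mitochondrial or 69 plastid genes did.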

How the data were processed

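The deposited values are MAS5 signal intensity per probe set, made by the authors with Affymetrix Microarray Suite 5.0, per the design text and the submitters' processing notes. They were linear, with the same trimmed mean on every array, and no detection calls were used. Depth does not apply to arrays; with 2 arrays per group their number limits the precision.

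The table holds 22810 probe sets; 64 controls were left out. Of the 22746 tested, 13513 were paired with 1 gene by the platform annotation, 503 with several and 8730 with none here. The RefSeq table (TAIR10.1) held 13436 of the paired genes; 1580 carry a symbol, and the others are given by locus code. Arrays were brought to a common trimmed mean, 50 was added and log2 taken. A fit of 6 group means to all 12 arrays was made with limma 3.58.1 in R 4.3.3 (6 residual and 4.3 prior degrees of freedom; trended eBayes; two-sided tests; Benjamini-Hochberg adjustment over all 22746 probe sets, threshold 0.05). It was tested on simulated data.

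Genes named are the 12 largest differences each way among probe sets that passed, had 1 gene and did not overlap, the 10 largest each way with a symbol, and up to 4 members per list; STOMAGEN, PUB24, XERICO, PORB, ATPMEPCRD and LCR69 were chosen after their values were seen. Members and lists were chosen with earlier results of these data known. Mitochondrial genes were taken by their symbols after the naming table was read. Alternatives were other offsets, normalization, filters, variance models, sets of arrays, the replicate block and left-out arrays. The main fit did not pair arrays by replicate number. Gene positions in the RefSeq table served for the pairs of neighbours, and positions of the probe sets themselves were not used.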

Additional observations from a re-analysis of the deposited data

Results flagged for a closer look

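JAL22 was singled out because the effects of 2 ethylene-insensitive mutants differed: the etr1 effect at 12 days was -2.11 and the ein2 effect at 14 days 0.642, with a difference of -2.76 ± 0.238 (SE, limma, adjusted p = 0.00714). Both etr1 arrays lay below, and both ein2 arrays above, the wild-type arrays of their age.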

How the results depend on the processing

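The count of 590 probe sets (361 higher in aba2, 229 lower) lay within 1.5 times of its value with offsets of 10 and 150, quantile normalization, filters at the 40th and 60th percentile and eBayes without trend (516 to 708). It was 1439 (767 higher, 672 lower) with array weights per group, 1053 (609 and 444) with the aba2 and etr1 arrays alone, 1195 (662 and 533) without the Col-0 arrays at 12 days and 186 (128 and 58) with the 8 arrays at 12 days. Without the Col-7 arrays at 12 days, an alternative chosen after seeing the data, it was 809 (446 and 363). With 1 aba2 or etr1 array left out, so that the lone array was assumed to vary like the other groups, it was 88 to 122 (53 to 89 higher, 21 to 45 lower). With the replicate block it was 668 (403 and 265). Replicate deviations of aba2 and etr1 correlated at 0.0657, and whether the replicate numbers pair arrays across the series was not tested. The cause of these changes was not tested. No called probe set changed sign under any setting. With left-out arrays and other offsets no change was possible, since the aba2 and etr1 arrays did not overlap for any of the 590. Of 40 named genes 15 kept their call without each of the 4 mutant arrays in turn, and 29 kept it with the 8 arrays at 12 days. The number of probe sets with wild types nearer to etr1 ran over 181 to 225 (higher) and 89 to 122 (lower). Of 380 list medians under other settings 341 stayed within 1 SD and 39 moved. The number of arrays and the dimness of probe sets under the offset limit the precision.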

Other observations

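The largest difference of any probe set that passed belonged to a probe set that is unnamed here. It had 86.8 and 139 in aba2, against 2987 and 5103 in etr1 (-4.62), with 935 to 2516 in the 12-day wild types. It also passed as higher in ein2 than in Col-0 at 14 days, by 2.44. Among unnamed probe sets higher in aba2, that with the largest difference had 1098 and 1097 in aba2, against 90.6 and 132 in etr1 (2.84), and 99.0 to 123 in the 12-day wild types.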
